A study of Homo sapiens with 8 samples.

Results

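The genes described here are 39 enzymes, transporters and regulators of central carbon metabolism, taken by gene symbol from a fixed list. That list was chosen with earlier results of these data known, so it is not blind to them. They fall into 4 parts: 23 genes of glucose uptake, glycolysis and lactate handling, 3 of the pyruvate dehydrogenase step, 4 of the pentose phosphate pathway and 9 of the tricarboxylic acid (TCA) cycle. All 39 were found among the 58735 genes of the count table, and all 39 were expressed highly enough to be tested. RNA-seq was made from SRA01/04, an immortalised line of human lens epithelial cells, carrying either a control short hairpin RNA (shControl, genotype given as WT) or a hairpin against SMURF1 (shSMURF1, genotype given as Smurf1 knockdown), with 4 libraries in each group. Every library came from cells given 20 ng/ml TGF-β2 for 48 h, so nothing here compares cells with and without the growth factor. No second SMURF1 hairpin appears in the labels, which give neither its vector nor whether the lines are clones, and call the libraries biological replicates without saying that cultures were kept apart. The p-values therefore measure the spread between these libraries, and effects of low SMURF1 cannot be told apart from off-target or line differences.

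Glycolysis converts glucose to pyruvate in the cytosol and yields ATP without oxygen. Pyruvate is then either reduced to lactate and exported or carried into mitochondria, where pyruvate dehydrogenase feeds the TCA cycle. The pentose phosphate pathway branches off after the first step and supplies NADPH and ribose. The lens has no blood supply and sits at low oxygen, and its cells are known for drawing most of their ATP from glycolysis.

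Library totals ran from 14688651 to 17030394 counts. SMURF1, the targeted ubiquitin ligase, was at 85.8, 93.3, 88.5 and 88.1 on the counts-per-million scale (CPM) in the shControl libraries and at 51.4, 50.4, 51.4 and 51.2 CPM in the shSMURF1 libraries, and the groups did not overlap (log2 fold change −0.80 ± 0.055, SE, adjusted p = 2.86e-09). PAX6 (33.3 CPM in shControl), SIX3 (16.2 CPM) and VIM (2122 CPM) were expressed, while the lens genes FOXE3, PROX1, CRYAA, CRYAB, CRYBB2 and MIP were each below 1 CPM in both groups and BFSP1 was at 3.71 CPM in shControl. Of 4 epithelial markers, KRT8 (917 CPM in shControl) and KRT18 (324 CPM) were expressed, while EPCAM and CDH1 were each below 1 CPM in both groups. The summed level of 12 lens markers, mostly VIM, was 2560 to 2602 CPM in shControl and 1978 to 2316 CPM in shSMURF1, with 3 lower (GJA1, VIM and SIX3) and 0 higher. Of 6 fibroblast markers, summing to 2234 to 2457 CPM and 1703 to 2399 CPM, 1 was lower (COL1A2) and 2 were higher (PDGFRB and LUM), and COL1A1 was at 2001 CPM in shControl. In bulk RNA, fewer cells of a kind and less RNA per cell cannot be told apart. Markers of leukocytes (PTPRC, CD3E, CD68) and of endothelium (PECAM1, VWF, CDH5) reached at most 1.76 CPM in either group mean, and CD3E was at 0. Library shSMURF1 replicate 3 stood apart: its log2 CPM fell with GC content (slope −0.115 per 10 points of GC), while the other shSMURF1 libraries had slopes of 0.075 to 0.116 and shControl libraries −0.0612 to −0.0261. Counts are given with and without it where that matters. The mitochondrially encoded share of counts was 4.03% to 4.4% in shControl and 5.07% to 6.34% in shSMURF1. The part of the marker and mitochondrial shifts in the results below was not tested.

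Most of the 23 listed glycolytic genes were lower in shSMURF1 cells, and most listed genes of the other parts did not pass. Of the 39 genes, 19 fell, 2 rose and 18 did not pass. Of the 23 genes of glycolysis, 16 fell, 1 rose and 6 did not pass (edgeR quasi-likelihood test, adjusted p under 0.05), with 15 showing no overlap between the groups. Over all 15647 genes tested, 22.5% changed, 12.2% as lower and 10.3% as higher, and in 23.7% the groups did not overlap. The share called lower was 69.6% among the glycolytic genes. The median log2 fold change was −0.21 for glycolysis, 0.03 for the pentose phosphate genes and 0.04 for the TCA cycle, beside 0.01 for all genes. Without shSMURF1 replicate 3, 16 glycolytic genes were lower, and over all 15878 genes tested in that fit 2747 were lower and 2601 higher.

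**Figure D1:**
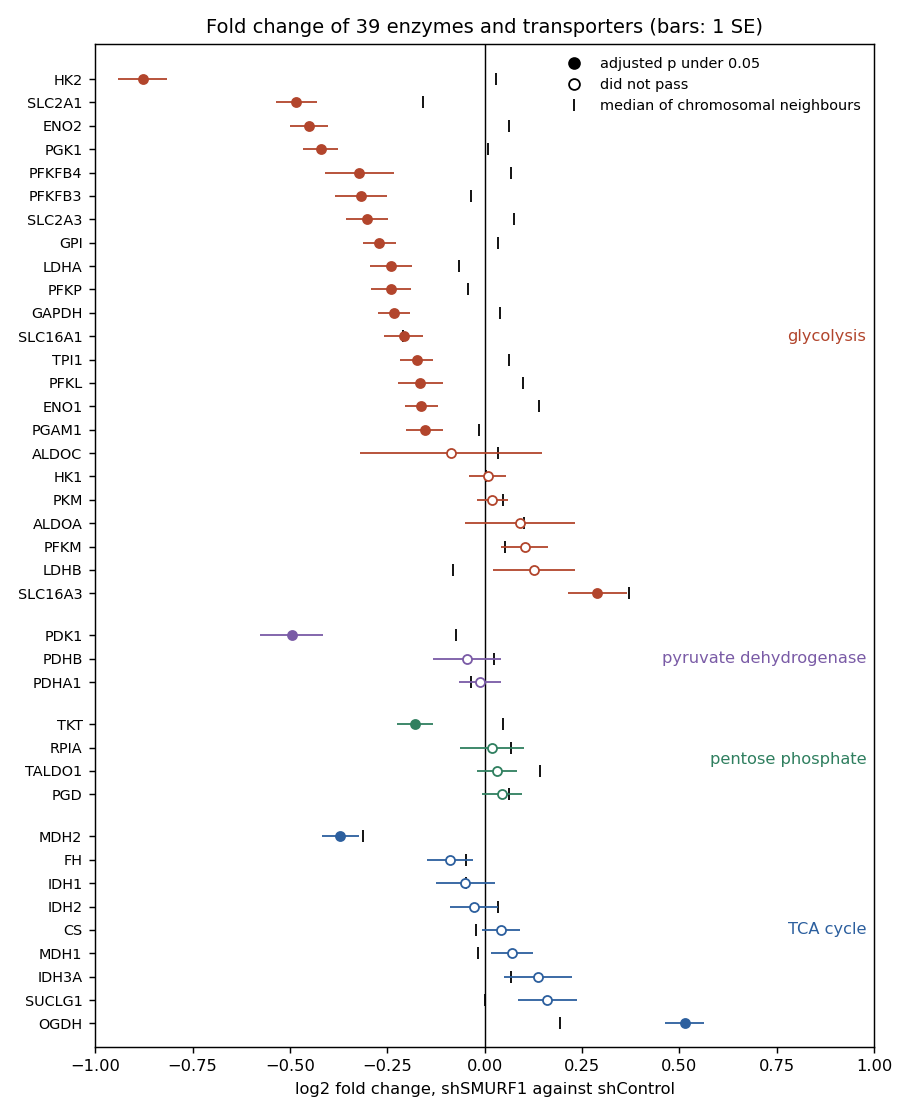
Log2 fold change of each of the 39 genes in shSMURF1 against shControl (horizontal axis), grouped by part; bars are 1 SE, filled points have an adjusted p under 0.05 and black ticks mark the median of the nearest tested genes on the chromosome. Most glycolytic points lie left of 0, HK2 farthest at −0.88, and OGDH of the TCA cycle lies farthest right at 0.51.

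Both glucose transporters fell. SLC2A1 (GLUT1, ENSG00000117394, GRCh38 chromosome 1, 42925375 to 42959176, minus strand), the main basal glucose carrier, was at 214.9, 198.2, 211.1 and 200.9 CPM in shControl and at 146.4, 148.5, 137.4 and 157.4 CPM in shSMURF1. Every shSMURF1 library lay below every shControl library, with a log2 fold change (shSMURF1 over shControl, ± SE) of −0.48 ± 0.053, adjusted p = 1.52e-06. The tested genes around SLC2A1 on chromosome 1 had a median of −0.16, so SLC2A1 differed from its neighbours by −0.32 on the log2 scale. SLC2A3 (GLUT3), a carrier of high affinity for glucose, was at 138.6, 138.0, 129.9 and 130.5 CPM in shControl and at 111.3, 102.9, 115.4 and 105.7 CPM in shSMURF1. The groups did not overlap, and the log2 fold change was −0.30 ± 0.053 (adjusted p = 0.000327) among neighbours at 0.08.

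The 15 enzymes from hexokinase to pyruvate kinase held 10 that fell and 0 that rose, the latter also at an unadjusted p under 0.05 with edgeR and with DESeq2 and limma-voom. HK2 (ENSG00000159399, chromosome 2, 74833981 to 74893359, plus strand), the inducible hexokinase that traps glucose as its phosphate, was at 70.2, 67.9, 64.6 and 67.4 CPM in shControl and at 33.8, 38.8, 36.6 and 37.7 CPM in shSMURF1. No library of either group came near the other group, and HK2 stood at 54.4% of control (log2 fold change −0.88 ± 0.063, adjusted p = 5.99e-09). HK1, the constitutive hexokinase, was at 341 ± 13.1 CPM in shControl and 343 ± 13.6 CPM in shSMURF1 (mean ± SD, n = 4 each), with a log2 fold change of 0.01 ± 0.048 that did not pass (adjusted p = 0.933). In CPM per kilobase of exon (RPKM, which allows genes to be compared), HK1 was at 54.2 and HK2 at 11.1 in shControl, so the isozyme that fell was the less abundant of the pair.

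ENO2 (chromosome 12, 6913745 to 6923698, plus strand), the γ-enolase best known from neurons, was at 228.8, 214.2, 211.8 and 219.5 CPM in shControl and at 165.2, 154.1, 165.3 and 154.7 CPM in shSMURF1. The groups were separate, with a log2 fold change of −0.45 ± 0.049 (adjusted p = 1.60e-06). PGK1 (chromosome X, 77910739 to 78129296, plus strand), phosphoglycerate kinase of the first ATP-forming step, was at 1242.6, 1155.3, 1149.8 and 1190.2 CPM in shControl and at 842.0, 877.7, 916.9 and 901.2 CPM in shSMURF1. It was lower in all 4 shSMURF1 libraries than in any shControl library, at 74.7% of control (−0.42 ± 0.044, adjusted p = 9.88e-07).

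The other enzymes that fell did so by smaller steps. GPI, the isomerase after hexokinase, changed by −0.27 ± 0.042, PFKP by −0.24 ± 0.050, GAPDH by −0.23 ± 0.042, TPI1 by −0.18 ± 0.043, PFKL by −0.16 ± 0.058, ENO1 by −0.16 ± 0.043 and PGAM1 by −0.15 ± 0.047 on the log2 scale, and in each the libraries of the 2 groups did not overlap. GAPDH, often taken as a reference gene, had 4298 to 4564 CPM in shControl and 3625 to 4018 CPM in shSMURF1. PFKL lay just inside the threshold (adjusted p = 0.0474) and did not pass with libraries scaled by their totals alone (adjusted p = 0.0941), with a replicate block (adjusted p = 0.0553), or without any one shControl library or shSMURF1 replicate 1 (adjusted p = 0.0681 to 0.125). Its log2 fold change was −0.10 without shSMURF1 replicate 3 (adjusted p = 0.0323) and −0.28 with the GC trend removed (adjusted p = 3.44e-07). PGAM1 did not pass without shControl replicate 4 or shSMURF1 replicate 2 or 4 (adjusted p = 0.0636 to 0.0863).

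Besides HK1, the enzymes that did not pass were PFKM, PKM, ALDOA and ALDOC. PKM, pyruvate kinase at the last step, was at 1799 ± 50.7 CPM in shControl and 1823 ± 37.5 CPM in shSMURF1, a log2 difference of 0.02 ± 0.040 that is small beside the fall of PGK1, at about the same level per length (210 RPKM against 215 RPKM in shControl). PFKM, the muscle-type phosphofructokinase, had 0.10 ± 0.060. The aldolase values are uncertain: ALDOA shares 1657 of its 3916 exonic bases with AC093512.2, a gene model on the same strand, and had only 8.86 CPM in shControl (0.09 ± 0.14), while ALDOC was at 2.23 CPM (−0.09 ± 0.23). Reads that fit both models can be lost in counting, so the level of ALDOA is not one of the whole gene.

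**Figure D2:**
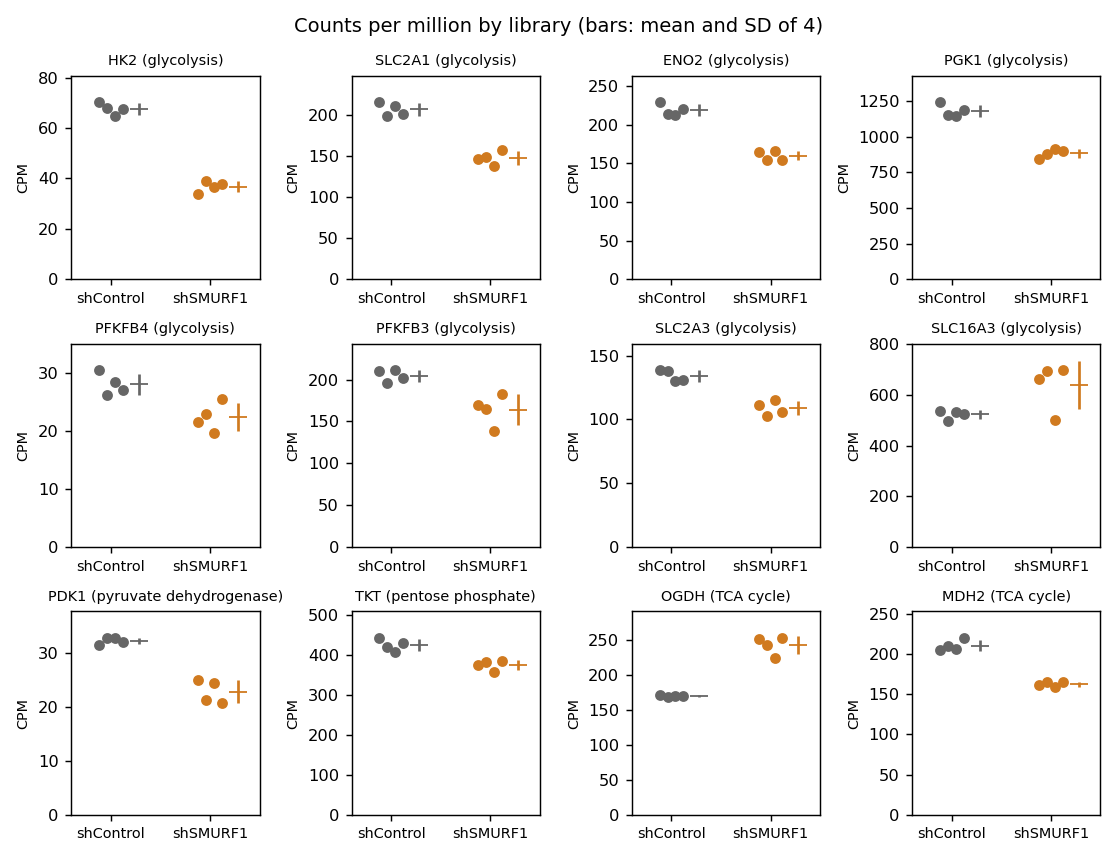
CPM (vertical axis, from 0) in each of the 8 libraries for 12 genes; each point is a library, and the bar beside each group is the mean with its SD (n = 4). In SLC16A3 the lowest shSMURF1 point, at 500.5 CPM, is replicate 3, whereas in OGDH all shSMURF1 points lie above the shControl points.

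Per length, the levels in shControl ran from GAPDH (1492 RPKM) through ENO1 (588), TPI1 (491) and PGAM1 (337) to PGK1, LDHA and PKM (215, 214 and 210), and, at the low end of the 39 genes, PFKFB4 (4.60), IDH3A (2.98), ALDOA (2.26), PDK1 (2.16) and ALDOC (0.762). The place of ALDOA is uncertain, since its count is not one of the whole gene. PDK1 was divided by 14883 annotated exonic bases, which can understate its level. The 4 most abundant, GAPDH, ENO1, TPI1 and PGAM1, act on triose phosphates or their products, and their log2 fold changes (−0.23 to −0.15) were smaller in size than those of HK2, SLC2A1 or ENO2. The levels of PGK1, LDHA and PKM lay within the spread over libraries (SD 7.7, 10 and 5.9 RPKM). Summed over the 23 glycolytic genes, the libraries held 18308, 17625, 17207 and 17905 CPM in shControl and 15416, 15498, 15822 and 15941 CPM in shSMURF1, with no overlap. GAPDH and ENO1 supply a large part of that sum.

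Both bifunctional enzymes that set fructose 2,6-bisphosphate, the activator of phosphofructokinase, fell. PFKFB3, whose kinase activity dominates, was at 209.9, 196.3, 211.3 and 201.4 CPM in shControl and at 170.1, 165.3, 138.7 and 183.0 CPM in shSMURF1 (log2 fold change −0.32 ± 0.066, adjusted p = 0.00152). Its lowest value was in shSMURF1 replicate 3, and the groups did not overlap. PFKFB4 was at 30.5, 26.2, 28.5 and 27.1 CPM in shControl and at 21.6, 22.98, 19.7 and 25.6 CPM in shSMURF1 (−0.32 ± 0.088, adjusted p = 0.0119). The gap between its groups was narrow, and PFKFB4 did not pass without shControl replicate 1 (adjusted p = 0.0527).

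Among the lactate genes, the enzyme and 1 transporter fell and the other transporter rose. LDHA, the subunit that favours reduction of pyruvate, was at 1395, 1350, 1246 and 1332 CPM in shControl and at 1065, 1059, 1261 and 1119 CPM in shSMURF1 (−0.24 ± 0.054, adjusted p = 0.00297). The groups overlapped only through shSMURF1 replicate 3, which exceeded shControl replicate 3. LDHB, the subunit of oxidative tissues, did not pass (0.13 ± 0.11) and rests on an uncertain count, since 997 of its 2983 exonic bases are shared with AC010197.2 on the same strand. SLC16A1 (MCT1), a lactate and pyruvate carrier, fell by 0.21 on the log2 scale (SE 0.050, adjusted p = 0.00462), which equals the median of its chromosomal neighbours (−0.21).

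SLC16A3 (MCT4, ENSG00000141526, chromosome 17, 82228397 to 82261129, plus strand), the carrier that exports lactate from strongly glycolytic cells, was at 538.3, 497.3, 533.4 and 526.4 CPM in shControl and at 665.3, 695.7, 500.5 and 698.3 CPM in shSMURF1. The shSMURF1 libraries lay above all shControl libraries with the exception of replicate 3, which lay within their range. The log2 fold change was 0.29 ± 0.076 (adjusted p = 0.00925) with all libraries, 0.39 without shSMURF1 replicate 3 (adjusted p = 4.63e-10) and 0.15 with each library's trend on GC content removed (adjusted p = 0.00229). SLC16A3 has the highest GC content of the 39 genes, 65.6%. Its neighbours on chromosome 17 had a median of 0.37, above SLC16A3 itself. CSNK1D, on the opposite strand with 482 shared exonic bases, was higher too (0.42 ± 0.055, adjusted p = 1.65e-05), and reads without strand cannot be assigned between the 2 in that stretch.

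A ratio of 2 isozymes inside a library does not depend on how libraries are scaled. Of 10 such ratios, 4 separated the groups completely: HK2 to HK1 changed by −0.89 ± 0.069 (SE), LDHA to LDHB by −0.35 ± 0.11, ENO2 to ENO1 by −0.29 ± 0.047 and PFKM to PFKL by 0.27 ± 0.059 on the log2 scale. Each had the smallest p that an exact two-sided permutation test of 4 against 4 libraries can give, 0.0286, which is 0.0714 after adjustment over the 10 ratios and does not pass. With the GC trend removed, 6 ratios reached an adjusted p of 0.0476 in the exact test, these 4 with SLC2A3 to SLC2A1 (0.27) and SLC16A3 to SLC16A1 (0.31, against 0.49 before). The ratio of PFKFB4 to PFKFB3 differed by −0.0018 ± 0.047 and that of IDH1 to IDH2 by −0.02 ± 0.12, and these p-values do not show that the ratios were equal. Per length, HK2 was at 0.205 of HK1 in shControl and 0.111 in shSMURF1.

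**Figure D3:**
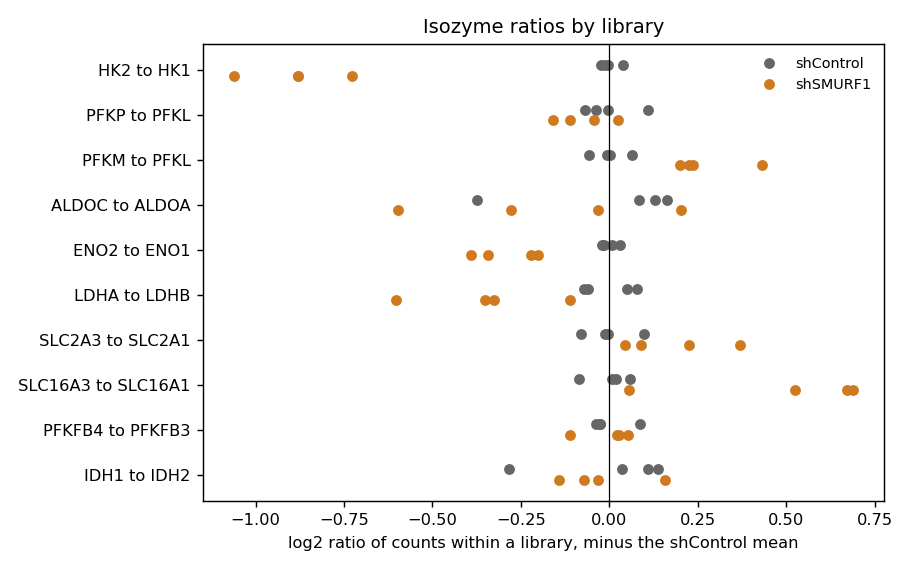
Log2 ratio of the counts of 2 isozymes in each library, with the shControl mean set to 0 (horizontal axis), for 10 pairs; each point is a library, grey for shControl and orange for shSMURF1. The shSMURF1 points of HK2 to HK1 lie farthest from 0, centred on −0.89, and those of SLC16A3 to SLC16A1 include 1 library among the shControl points.

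At the entry to the mitochondrion, the kinase fell and the enzyme it inhibits did not pass. PDK1 (chromosome 2, 172555373 to 172608669, plus strand), which phosphorylates and inactivates pyruvate dehydrogenase, was at 31.4, 32.7, 32.8 and 31.9 CPM in shControl and at 24.9, 21.3, 24.5 and 20.7 CPM in shSMURF1. All shSMURF1 libraries were below the shControl range, at 70.9% of control (−0.50 ± 0.080, adjusted p = 0.000128), with neighbours at −0.07. PDHA1 and PDHB, the subunits of its E1 component, had log2 fold changes of −0.01 ± 0.054 and −0.05 ± 0.087, the former with 956 of its 4493 exonic bases shared with MAP3K15 on the opposite strand. Thus 1 of the 3 genes fell and 0 rose, also 0 at an unadjusted p under 0.05 and with DESeq2 and limma-voom.

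In the pentose phosphate pathway, 1 of 4 genes fell and 0 rose, the latter also at an unadjusted p with edgeR and with DESeq2 and limma-voom. TKT, the transketolase of the non-oxidative branch, was at 443.6, 421.1, 408.0 and 431.1 CPM in shControl and at 376.7, 382.1, 359.3 and 386.4 CPM in shSMURF1. The groups were separate, with a log2 fold change of −0.18 ± 0.046 (adjusted p = 0.00751). PGD, which yields NADPH in the oxidative branch, was at 132 CPM in shControl and 136 CPM in shSMURF1 (0.04 ± 0.051). TALDO1, the transaldolase (0.03 ± 0.050), and RPIA, the ribose-phosphate isomerase (0.02 ± 0.083), did not pass either.

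Of the 9 TCA cycle genes, 1 rose, 1 fell and 7 did not pass. OGDH (ENSG00000105953, chromosome 7, 44606572 to 44709066, plus strand), the E1 component of 2-oxoglutarate dehydrogenase, was at 172.0, 169.2, 170.5 and 170.0 CPM in shControl and at 252.1, 243.4, 224.5 and 253.2 CPM in shSMURF1. The shControl libraries were nearly level and every shSMURF1 library was higher, at 142.8% of control (0.51 ± 0.050, adjusted p = 3.51e-07). MDH2, the mitochondrial malate dehydrogenase (chromosome 7, 76048051 to 76067508, plus strand), was at 205.1, 209.8, 205.7 and 220.0 CPM in shControl and at 161.4, 164.6, 158.7 and 165.3 CPM in shSMURF1. The groups did not overlap (−0.37 ± 0.047, adjusted p = 1.06e-05).

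Both lie on chromosome 7, in stretches whose genes moved. Around OGDH the neighbours had a median of 0.19, leaving OGDH 0.32 above them, whereas around MDH2 the median was −0.31 and MDH2 differed from it by −0.06. SMURF1 lies in the second kind of stretch, with neighbours at −0.24. What moved these stretches was not tested.

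Citrate synthase (CS, 0.04 ± 0.048), IDH2 (−0.03 ± 0.061) and IDH3A (0.14 ± 0.088), the mitochondrial isocitrate dehydrogenases, and IDH1, the cytosolic one (−0.05 ± 0.075), did not pass. IDH3A shares 2608 of its 6832 exonic bases with ACSBG1 on the opposite strand, which had at most 5 counts in a library. SUCLG1, of succinyl-CoA ligase, had 0.16 ± 0.076 and MDH1, the cytosolic malate dehydrogenase, 0.07 ± 0.055. Both passed as higher once the GC trend was removed (0.21 and 0.13, adjusted p = 0.00953 and 0.0218), which makes 3 TCA genes higher in that fit. Fumarase (FH, −0.09 ± 0.059) passed as lower without shSMURF1 replicate 3 (−0.14, adjusted p = 0.0163), and 2 TCA genes were then lower.

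Set side by side within each shSMURF1 library, the listed genes of glycolysis separated from those of the TCA cycle and the pentose phosphate pathway. The mean log2 difference from the shControl mean was −0.18, −0.20, −0.23 and −0.18 over the glycolytic genes of the 4 shSMURF1 libraries, and −0.02 to 0.05 in shControl. Over the TCA genes it was 0.04, 0.03, 0.06 and 0.03 in shSMURF1 and −0.03 to 0.04 in shControl, and over the pentose phosphate genes −0.05 to 0.00367 against −0.04 to 0.06, so these groups overlapped. Over the 3 pyruvate dehydrogenase genes, where PDK1 alone fell, it was −0.22 to −0.11 against −0.03 to 0.04. Glycolysis minus TCA was −0.22, −0.23, −0.29 and −0.21 in shSMURF1 and −0.02 to 0.02 in shControl, with no overlap, and shSMURF1 replicate 3 lay farthest out. No test was run on these means, since the genes were chosen with earlier results known. Relative to chromosomal neighbours, the medians were −0.24 for glycolysis, with 19 of 23 genes below their neighbours, −0.08 for the pentose phosphate genes, with 4 of 4 below, and 0.06 for the TCA cycle, with 4 of 9 below.

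**Figure D4:**
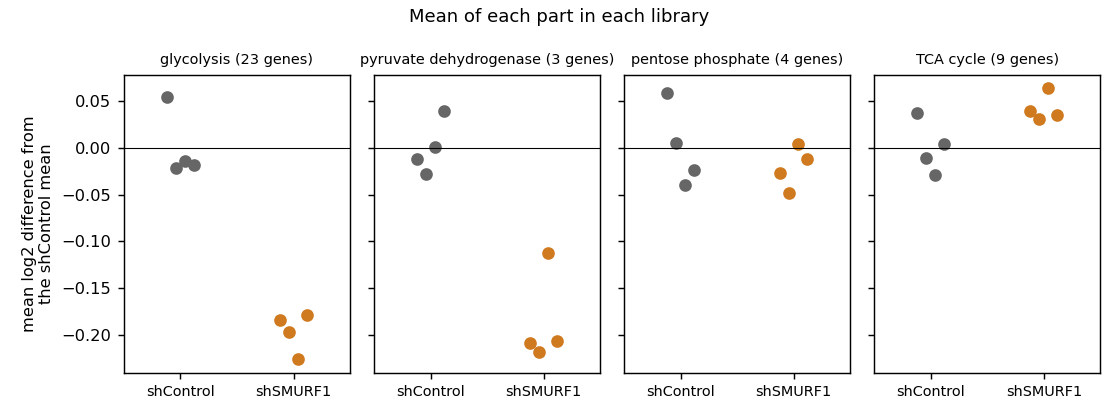
Mean over the genes of each part of the log2 CPM, relative to the mean of the shControl libraries (vertical axis), with 1 point per library. The 4 shSMURF1 points for glycolysis lie between −0.23 and −0.18, below all shControl points, and those of the pentose phosphate genes overlap the shControl points.

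A further 67 genes of the same pathways, listed by their place in them, moved in both directions. Of these, 53 were tested, 6 rose and 10 fell, or 30.2% changed, beside 22.5% of all genes. Among 16 tested genes at the edges of glycolysis, 3 rose and 3 fell. The sugar transporters SLC2A12 and SLC2A10 rose by 0.45 ± 0.11 and 0.36 ± 0.090, and PGM1, which links glucose to glycogen, fell from 101 to 67.0 CPM (−0.59 ± 0.054). The other 2 that fell, named after their values were seen, were BPGM (−0.27 ± 0.086, neighbours −0.24) and GPD2 (−0.23 ± 0.067). BSG, the chaperone of the lactate carriers, did not pass (0.04 ± 0.052).

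Around pyruvate dehydrogenase, 1 of 12 fell, DLD, the shared E3 component (−0.31 ± 0.064), and 1 rose, PC, pyruvate carboxylase (0.25 ± 0.086, adjusted p = 0.0460). DLD lies on chromosome 7 among neighbours at −0.35. PDK2, PDK3 and PDK4, the other kinases, had 0.04 ± 0.056, −0.37 ± 0.15 and −0.08 ± 0.30 and did not pass. Of 7 tested pentose phosphate genes, H6PD, an enzyme of the endoplasmic reticulum, rose (0.33 ± 0.052) and RPE, an epimerase, fell just inside the threshold (−0.18 ± 0.063, adjusted p = 0.0497).

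In the remaining TCA list, 5 of 18 fell and 1 rose. Their median log2 fold change was −0.11, beside 0.06 for the 16 tested genes at the edges of glycolysis. The contrast of lower glycolysis and level TCA genes thus holds for the 39 listed genes and not for these further lists. ME3 and ME1, malic enzymes, fell by 0.74 and 0.37, DLST, the E2 component of 2-oxoglutarate dehydrogenase, fell from 83.6 to 55.2 CPM (−0.60 ± 0.055, adjusted p = 1.55e-07) and SDHD, a membrane anchor of succinate dehydrogenase, fell by 0.32. The last that fell was PCK2 (−0.25 ± 0.051), named after its values were seen. The 3 components of 2-oxoglutarate dehydrogenase thus differed in direction, OGDH higher and DLST and DLD lower. DLST differed by −0.47 from its neighbours at −0.13, whereas DLD lay 0.04 above its own. SDHA (−0.0022 ± 0.045), SDHB (0.18 ± 0.071) and SDHC (−0.14 ± 0.059) did not pass.

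Promoter sequence was read for the members that fell, since several glycolytic genes are textbook targets of hypoxia-inducible factor, whose core site is written ACGTG or GCGTG. RefSeq windows (GRCh38.p14) of 300 bases, from 250 before to 50 after each annotated start, were found for 36 of the 39 genes, 64 windows in all. SLC2A3 and SLC16A1, which fell, and OGDH, which rose, had no window. The sequences below are the 250 bases before 1 start of HK2, ENO2, PGK1 and LDHA, shown because these genes fell and their windows hold the motif, and chosen after the matches were counted. Capitals mark ACGTG and GCGTG on either strand, and CACGTG counts as a match on both. They lie at chr2:74834920-74835169 (HK2, the second of 2 starts), chr12:6914330-6914579 (ENO2), chrX:78103998-78104247 (PGK1) and chr11:18394313-18394562 (LDHA, the first of 2 starts), all on the plus strand and printed 5′ to 3′.
HK2: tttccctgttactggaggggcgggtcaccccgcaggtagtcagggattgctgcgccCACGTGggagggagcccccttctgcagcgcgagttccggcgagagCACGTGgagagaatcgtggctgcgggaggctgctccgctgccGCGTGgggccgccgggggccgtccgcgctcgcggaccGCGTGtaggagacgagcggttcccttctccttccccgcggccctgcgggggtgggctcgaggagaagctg
ENO2: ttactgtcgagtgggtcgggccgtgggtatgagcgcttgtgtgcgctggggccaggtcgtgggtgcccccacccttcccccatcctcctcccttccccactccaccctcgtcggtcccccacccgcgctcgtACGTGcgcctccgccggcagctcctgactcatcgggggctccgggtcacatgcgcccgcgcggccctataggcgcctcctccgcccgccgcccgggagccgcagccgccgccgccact
PGK1: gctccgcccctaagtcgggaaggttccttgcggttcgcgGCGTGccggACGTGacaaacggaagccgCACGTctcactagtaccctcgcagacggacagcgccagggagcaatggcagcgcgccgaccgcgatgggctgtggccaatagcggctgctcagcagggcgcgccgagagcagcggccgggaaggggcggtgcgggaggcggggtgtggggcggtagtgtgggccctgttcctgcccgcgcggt
LDHA: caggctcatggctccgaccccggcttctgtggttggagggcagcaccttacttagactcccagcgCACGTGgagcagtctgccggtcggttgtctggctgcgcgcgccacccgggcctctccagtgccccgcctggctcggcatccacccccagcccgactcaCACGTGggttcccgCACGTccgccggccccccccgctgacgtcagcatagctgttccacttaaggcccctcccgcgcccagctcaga

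The stretch of HK2 held 6 matches, that of LDHA 5, that of PGK1 3 and that of ENO2 1, whereas the same stretch of SLC2A1, which also fell, held 0, its single match reaching past the start. PGAM1, TKT and MDH2, which fell as well, also held 0. Among members that did not pass, PDHB held 6 and ALDOC 5, while TALDO1 and CS held 0. Over whole windows, 17 of 21 windows (81.0%) of the glycolytic genes that fell held at least 1 motif, beside 60.2% of the 15747 windows of all tested genes. ACGTG alone was in 47.6% of the former and 25% of the latter, and GCGTG in 57.1% and 48.2%. These 21 windows belong to 14 genes picked by their fall. Over all 46 windows of the glycolytic genes, fallen or not, either motif was in 65.2%, ACGTG in 37.0% and GCGTG in 41.3%. In the 10 TCA windows either motif was in 60.0%, ACGTG in 10.0% and GCGTG in 60.0%. The 4 pyruvate dehydrogenase windows held ACGTG in 50% and the 4 pentose phosphate windows in 25%. Windows of glycolytic genes that fell were also richer in GC (median 71.0% against 64.7%), and both motifs contain CG. Over all parts, members that fell held a motif in 72.0% of their 25 windows and members that did not pass in 58.8% of 34. Shares of windows are not shares of genes: HK1 and PFKM, which did not pass, have 7 windows each. A match describes letters only and is no measure of binding.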

How the data were processed

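Poly(A)-selected RNA of 8 libraries was counted per gene. The authors deposited raw, unnormalized read counts. Tools named in the submitters' processing notes are CASAVA, fastp, HISAT2 2.0.5 and featureCounts 1.5.0-p3. Their settings, the build, the gene models and any strand marking were not given in the sources used here. Symbols, positions and merged exon lengths came from GENCODE 29 (GRCh38), GC content from its transcripts.

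All genes were fitted together with edgeR 4.0.16 in R 4.3.3: filterByExpr with a minimum count of 10, TMM scaling, quasi-likelihood F test between the groups, no covariates, and Benjamini-Hochberg adjustment over the 15647 genes tested, with a threshold of 0.05. SE is the log2 fold change over the root of F. CPM and RPKM use TMM-scaled totals. RPKM divides by all annotated exons and so understates genes with long rare exons. Neighbours are up to 25 tested genes on each side. Isozyme ratios used counts plus 0.5 and exact permutation tests. The edgeR fit was tested on simulated data, with settings and outcome not reported here, so no conclusion on its p-values is drawn from that.

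Other settings were DESeq2 1.42.0 and its size factors, limma-voom (limma 3.58.1), library totals alone, other filters, the replicate number as a block, removal of each library's trend on GC content (lowess, span 0.3) and leaving out each library. The members and lists were chosen with earlier results of these data known. Values were given in every library for the changed members with the largest change, up to 8 in glycolysis and 3 in each other part, and for any that rose; LDHA was added after its values were seen. Of the further pathway genes, up to 4 changed genes per part with the largest change were named by rule, and those that did not pass were picked after their values were seen. A few of the further genes are counted but not reported here by name.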

Additional observations from a re-analysis of the deposited data

Results flagged for a closer look

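In 3 of the 80 sets of 4 libraries examined (39 members and SMURF1, in each group), 1 library was far from the other 3, its gap to the nearest exceeding 0.829 of the range (chance gives about 1 in 20). SLC16A3 was at 500.5 CPM in shSMURF1 replicate 3 against 665 to 698 CPM in the other shSMURF1 libraries. TALDO1 was at 191.1 CPM in shControl replicate 1 against 174.8 to 177.2 CPM in the others. IDH3A was at 21.78 CPM in the same library against 19.75 to 20.0 CPM.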

How the results depend on the processing

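The 16 glycolytic genes counted as lower were 16 in number under DESeq2, limma-voom, DESeq2 size factors, both other filters and the removal of the GC trend, 15 with library totals alone and 14 to 16 when any library was left out. Removing the GC trend left 4 of the 39 genes higher, 3 of them in the TCA cycle, against 2 and 1. TCA genes counted as lower were 1 to 2 when a library was left out, the 2 coming without shSMURF1 replicate 3. Over all genes, 1216 to 2601 were higher and 1547 to 2747 lower when a library was left out, the highest counts without shSMURF1 replicate 3, against 1611 and 1916. With the replicate block, 1418 genes were higher and 1774 lower, and 15 glycolytic genes were lower, PFKL being lost. Same-numbered libraries did not deviate together (correlations −0.0672 to 0.0321). With so few libraries, and replicate 3 of shSMURF1 apart, this cannot show whether same-numbered libraries were prepared together. No member changed direction and passed in any of these settings. Counts of 1157 for ALDOA and 273 for ALDOC over the 8 libraries limit what can be seen of the aldolases.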

Other observations

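Processed pseudogenes can take or lose reads of glycolytic genes. Of the 39 genes, 16 have pseudogenes named after them in GENCODE 29, GAPDH the most with 62. Counts assigned to the pseudogenes were at most 1% of those of the parent gene (TPI1, 1583 against 157735 counts), 0.275% for PGAM1 and 0.223% for GAPDH. How many reads that match several copies were left uncounted is not known from these counts.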
